A study of Mus musculus with 18 samples.

Results

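The comparison described here set a mutant integrin β3 that cannot signal (Δβ3) against an empty retroviral vector (pMx), both in untreated PyMT-BO1 cells. PyMT-BO1 is a mouse breast cancer line of luminal B-like type on a C57BL/6 background, and integrin β3 had been knocked out in all cells of the series. The members were chosen by label: 3 Δβ3 and 3 pMx cultures that had received the solvent DMSO for 24 h, 6 of the 18 libraries in all. The other 12 libraries were 3 DMSO cultures of cells carrying a functional human integrin β3 (hβ3) and 9 cultures of the 3 lines in docetaxel at 10 nM, a drug of the taxane class that acts on microtubules. The comparison asks what returning the β3 protein without its signalling does to the transcriptome of cells that lack β3. The sources used here do not give the mutation in Δβ3 or the species of its sequence. Each construct was represented by 1 line, so the p-values reflect variation among cultures only, and any feature in which the 2 lines differ besides the construct enters the comparison.

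Integrin β3 pairs with αv, or with αIIb in platelets, to form cell surface receptors for matrix proteins such as vitronectin, fibronectin and osteopontin. Ligand binding and clustering recruit talin, kindlin and kinases of the FAK and Src families to the β3 tail, and the signal reaches the MAPK cascade. Immediate-early genes such as Fos and Egr1 encode transcription factors that are transcribed within minutes of MAPK activation, from RNA that is rapidly degraded.

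The 6 libraries held 10.3 to 15.7 counts in units of 1e6, and all 18 libraries 7.97 to 18.96. Levels are given in counts per 1e6 counts (CPM) after TMM scaling. Heart muscle RNA was measured in Δβ3 DMSO culture 1. The summed level of 28 heart muscle markers was 5972 CPM there, against 563 and 615 CPM in Δβ3 cultures 2 and 3 and 547 to 2282 CPM in the pMx cultures. Tnnt2, Nppb, Mb and Sln, of the same list, had 0 counts in all 6 libraries. The ribosomal RNA precursor Rn45s made up 41.5% of the counts of that culture and 8.36% to 10.1% in the other 5 libraries. The median gene differed by 0.45 (absolute log2) between culture 1 and the mean of cultures 2 and 3, and by 0.16 between cultures 2 and 3. Δβ3 docetaxel culture 2 had a heart marker sum of 49415 CPM, and the remaining 16 libraries lay between 285 and 2534 CPM. The main results are therefore given from the fit of all 18 libraries and from a fit of 16 libraries without these 2 cultures. Where 1 fold change or list median stands alone, it is from the fit of 16. The biological coefficient of variation fell from 36.1% with 18 libraries to 13.2% with 16. Of 15 luminal epithelial markers, only Krt8 and Krt18 were abundant. The others held at most 52 reads in any of the 6 libraries (Prlr in Δβ3 culture 1), with Cdh1 at 4 to 15 and Epcam at 0 to 1. Gata3, Elf5 and Cldn7 had 0 counts in all 6 libraries. Such low counts do not show that these genes are silent, because Gapdh, a glycolytic enzyme of every cell, had a mean of 2.82 CPM there.

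**Figure D1:**
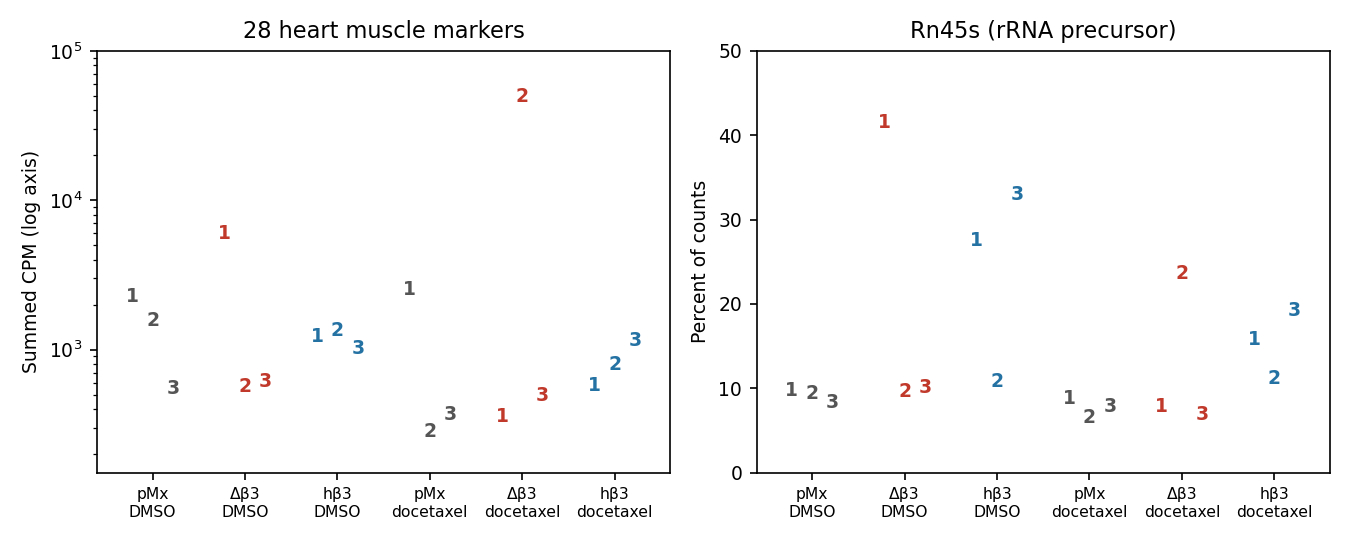
Summed CPM of 28 heart muscle markers (left, log axis) and percent of counts on Rn45s (right) in the 18 libraries, by line and treatment; each digit is the culture number. Δβ3 DMSO culture 1 stood at 5972 CPM and 41.5%, and Δβ3 docetaxel culture 2 at 49415 CPM.

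The knocked-out gene itself, Itgb3 (mm10, plus strand of chromosome 11 from 104608000 to 104670476), followed the labels. It had 1.30, 1.27 and 0.322 CPM in the pMx cultures and 66.6, 112.9 and 110.3 CPM in Δβ3 cultures 1 to 3, or 0.965 ± 0.557 and 96.6 ± 26.0 (SD, n = 3 each). The pMx libraries held 15, 20 and 5 reads and the Δβ3 libraries 675, 1455 and 1275. No Δβ3 culture came near the pMx range, and culture 1 was the lowest of the 3. The log2 fold change was 6.66 ± 0.56 (SE) with 18 libraries and 6.87 ± 0.35 with 16 (edgeR quasi-likelihood test, adjusted p = 9.93e-05 and 2.45e-06). A human sequence in a construct is counted here where its reads align to mouse Itgb3, so the values do not measure construct RNA in full.

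Beyond Itgb3, few genes separated the lines. With 18 libraries, 5 of 12145 tested genes were called at an adjusted p under 0.05, which is 0.0412% of those tested. Of these, 4 were higher in Δβ3 (Itgb3, Egr1, Fos and Ier2, 0.0329%) and 1, Igsf11, was lower (0.00823%), while 1225 genes (10.1%) had an unadjusted p under 0.05. With 16 libraries, 41 of 12356 genes were called (0.332%), 34 higher (0.275%) and 7 lower (0.0567%), and 1062 (8.6%) had an unadjusted p under 0.05. All 5 were among the 41, and all 41 had the same sign with 18 libraries. The CPM ranges of the 3 Δβ3 and 3 pMx cultures did not overlap for 35 of the 41, and over all tested genes they did not for 9.2% with Δβ3 higher and 7.25% with Δβ3 lower. Apart from Δβ3 culture 1, these cultures also made the calls. The count of 35 and the shared sign of the 41 with 18 libraries are therefore in part fixed by the selection. A difference of at least 2-fold was fitted for 10 of the 41, 8 higher and 2 lower. The other 31 had smaller changes, down to 0.36 on the log2 scale in Seh1l.

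**Figure D2:**
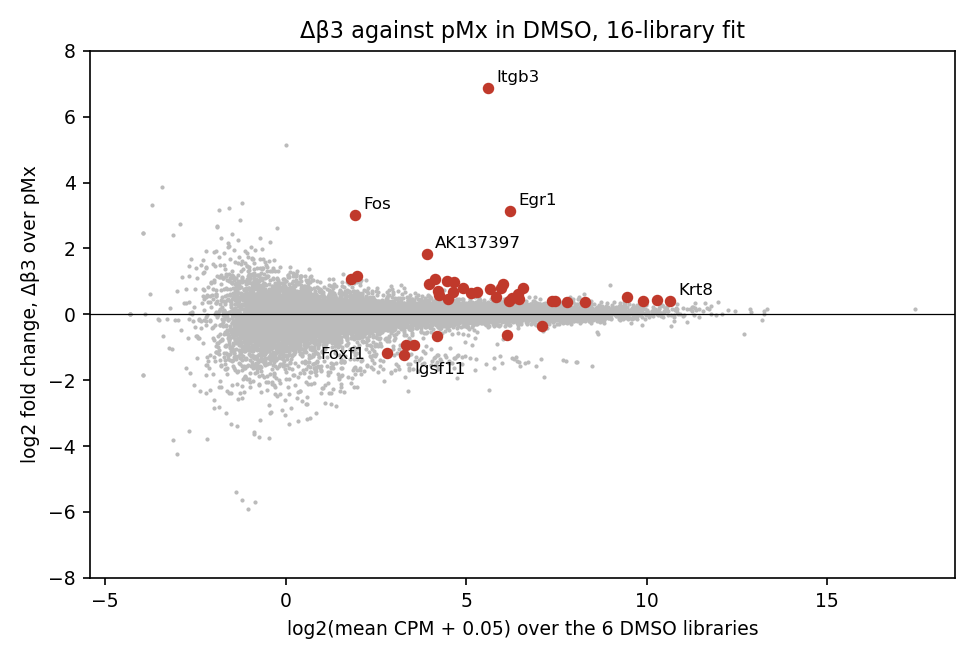
Log2 fold change of Δβ3 over pMx in DMSO from the fit of 16 libraries against the log2 mean CPM of the 6 DMSO libraries, with 0.05 added; grey points are the 12356 tested genes and red points the 41 called. Itgb3, Egr1, Fos and AK137397 stood highest among the red points and Igsf11 and Foxf1 lowest.

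The called immediate-early genes are shown first by the sequence before their start sites, since several are classical targets of serum response factor and of cAMP-responsive factors. RefSeq start sites (build GRCm38.p6) gave a window of up to 250 bases upstream for 24 of the 41 called genes. Printed below are the windows of the 4 immediate-early genes that had one and of Cyr61, a further gene called with 16 libraries that is induced rapidly by serum. The capitals mark a cAMP response half-site (TGACG, either strand) or a CArG box, the serum response factor motif searched by name on both strands.
Fos (chr12:85473640-85473889, plus strand): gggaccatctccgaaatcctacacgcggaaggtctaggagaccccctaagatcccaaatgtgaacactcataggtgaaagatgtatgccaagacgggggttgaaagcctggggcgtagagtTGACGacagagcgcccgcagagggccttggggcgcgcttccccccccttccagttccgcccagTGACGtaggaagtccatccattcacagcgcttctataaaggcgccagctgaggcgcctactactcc
Fosb (chr7:19310052-19310295, minus strand): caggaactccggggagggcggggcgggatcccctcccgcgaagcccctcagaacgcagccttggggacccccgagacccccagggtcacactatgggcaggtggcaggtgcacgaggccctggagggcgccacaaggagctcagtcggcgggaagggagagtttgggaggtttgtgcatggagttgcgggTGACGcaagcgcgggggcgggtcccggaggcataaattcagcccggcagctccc
Junb (chr8:84978749-84978998, minus strand): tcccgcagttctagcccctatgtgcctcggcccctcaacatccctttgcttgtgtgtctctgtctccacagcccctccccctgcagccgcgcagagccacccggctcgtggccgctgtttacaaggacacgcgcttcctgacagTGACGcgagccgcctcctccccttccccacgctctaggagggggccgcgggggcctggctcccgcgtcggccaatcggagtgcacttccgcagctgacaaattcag
Dusp5 (chr19:53528895-53529108, plus strand): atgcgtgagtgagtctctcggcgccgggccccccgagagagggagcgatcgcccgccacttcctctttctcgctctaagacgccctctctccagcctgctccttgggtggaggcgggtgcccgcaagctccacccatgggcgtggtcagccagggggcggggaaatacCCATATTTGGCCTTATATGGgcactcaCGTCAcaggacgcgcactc
Cyr61 (chr3:145649986-145650235, minus strand): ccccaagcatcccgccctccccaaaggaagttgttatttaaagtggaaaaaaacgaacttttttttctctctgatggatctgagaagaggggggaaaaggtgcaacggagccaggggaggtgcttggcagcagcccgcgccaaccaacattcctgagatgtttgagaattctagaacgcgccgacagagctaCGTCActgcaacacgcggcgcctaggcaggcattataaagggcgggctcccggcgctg
The Fos window held 2 half-sites, and those of Fosb, Junb, Dusp5 and Cyr61 held 1 each. In all, 9 of the 24 windows held a half-site, against 17.8% of 32851 RefSeq windows of this length. The Dusp5 window held 2 CArG boxes side by side, the only window with one among the 24, against 1.47% of all windows. The AP-1 motif TGANTCA, which FOS and JUN proteins bind, was in 1 of the 24 windows, that of Mmp3, against 6.75% of all windows. These matches describe the letters in these windows and were not tested as sites. Sequence farther upstream was not searched, and Egr1 and Ier2 had no window.

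Immediate-early transcription factor genes had the largest differences after Itgb3. Egr1, a zinc finger transcription factor induced by growth factors, had 14.3, 16.9 and 17.7 CPM in pMx and 109.6, 145.4 and 144.0 CPM in Δβ3. Every Δβ3 culture, culture 1 included, stood far above the highest pMx culture. The log2 fold change was 3.03 ± 0.41 (SE) with 18 libraries and 3.14 ± 0.15 with 16 (edgeR adjusted p = 0.00703 and 3.5e-10). Fos, the partner of JUN proteins in the AP-1 factor (chromosome 12, 85473890 to 85477273), had 1.13, 1.15 and 0.387 CPM in pMx and 5.43, 6.21 and 8.13 CPM in Δβ3, from 6 to 18 and from 55 to 94 reads. The ranges did not overlap, and the log2 fold change was 2.89 ± 0.41 with 18 libraries and 3.02 ± 0.34 with 16 (adjusted p = 0.00703 and 1.98e-05). Ier2, a small nuclear protein of the same early wave (chromosome 8, 84661331 to 84662852), had 37.1, 35.2 and 39.1 CPM in pMx and 134.2, 70.8 and 69.8 CPM in Δβ3. Here culture 1 stood well above the other Δβ3 cultures, and the log2 fold change was 1.30 ± 0.21 with it and 0.91 ± 0.11 without it (adjusted p = 0.0264 and 3.01e-05). In the fit of 18 libraries, Egr1 and Ier2 were no longer called without any 1 of the pMx DMSO cultures (adjusted p from 0.0672 to 0.118 and from 0.135 to 0.329), nor was Fos without pMx culture 3 (0.0565). Their log2 fold changes in those fits were 2.94 to 3.09 for Egr1, 1.26 to 1.34 for Ier2 and 2.52 for Fos.

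**Figure D3:**
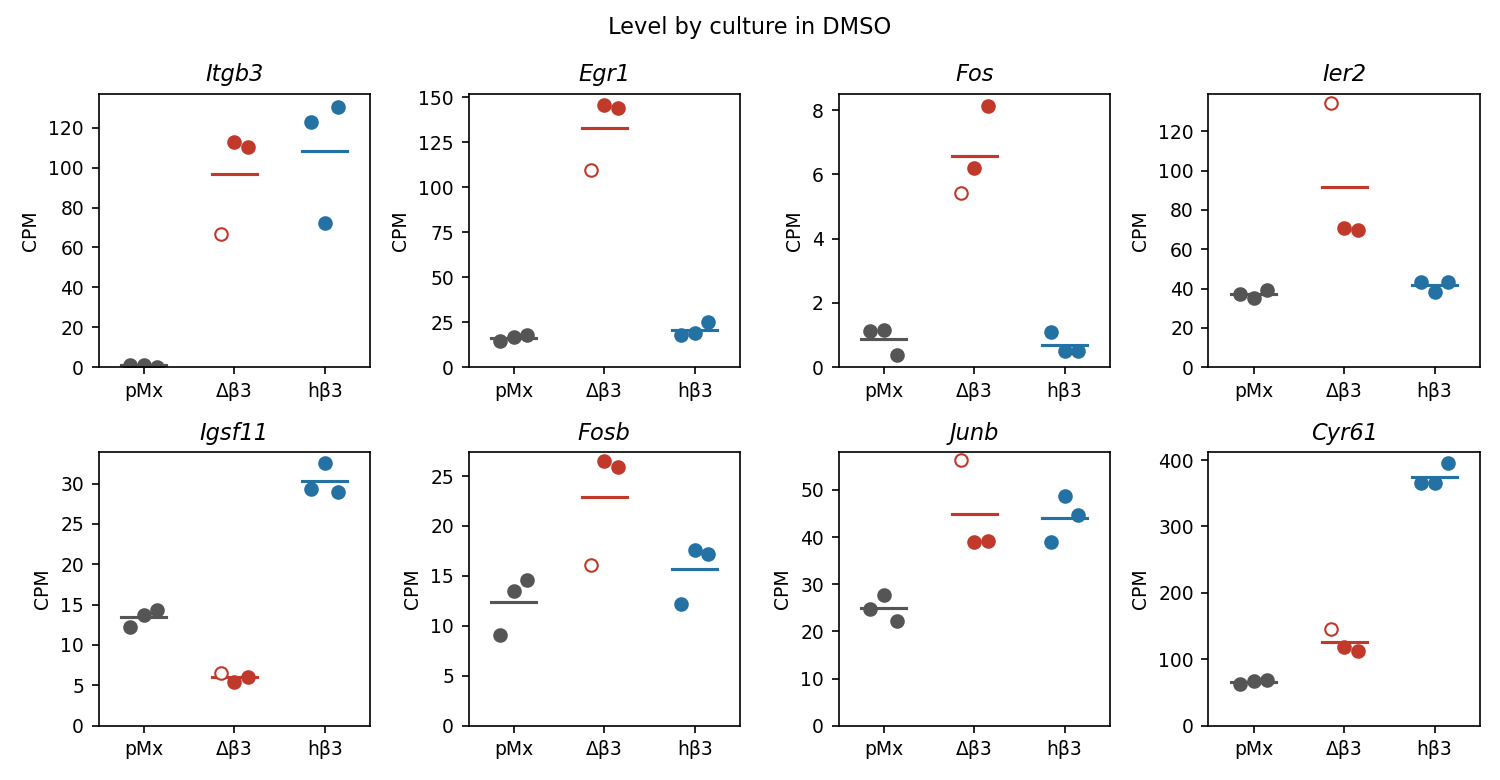
CPM of 8 genes in the 9 DMSO cultures of the pMx, Δβ3 and hβ3 lines; points are cultures, lines are means of 3 and the open circle is Δβ3 culture 1. Egr1 and Fos stood high in Δβ3 alone among these lines, and Igsf11 was lowest in Δβ3 and highest in hβ3.

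Fosb, Junb and Dusp5 were called with 16 libraries but not with 18. Fosb, another AP-1 subunit, had 9.09, 13.5 and 14.6 CPM in pMx and 16.1, 26.5 and 26.0 CPM in Δβ3, a log2 fold change of 1.06 ± 0.17 with 16 libraries and 0.88 ± 0.30 with 18 (edgeR adjusted p = 0.00196 and 0.458). Junb, a further AP-1 subunit, had 24.8, 27.7 and 22.2 CPM in pMx and 56.3, 39.0 and 39.1 CPM in Δβ3 (log2 0.64 ± 0.12 with 16 libraries and 0.85 ± 0.22 with 18, adjusted p = 0.00953 and 0.458). Dusp5, a nuclear phosphatase that inactivates ERK and is itself an ERK target, had 157.8, 176.3 and 164.8 CPM in pMx and 391.2, 224.3 and 209.5 CPM in Δβ3 (log2 0.38 ± 0.08 and 0.73 ± 0.18, adjusted p = 0.0358 and 0.458). All 3 genes had ranges that did not overlap, with culture 1 lowest of the Δβ3 cultures for Fosb and highest for Junb and Dusp5. With 16 libraries the call of Fosb was lost without Δβ3 culture 2 (adjusted p = 0.0639). That of Junb was lost without Δβ3 culture 2 or 3 or pMx culture 1 or 3 (up to 0.177), and that of Dusp5 without any 1 of the 5 cultures left (up to 0.771).

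Over the list of immediate-early and MAPK output genes, 22 of 26 members were tested with 16 libraries, and 6 rose and 0 fell, where 0.275% of all tested genes were called higher. The median of the 22 was 0.24, beside -0.01 over all tested genes, and 21 of the 22 were above 0, beside 5975 of all 12356. With 18 libraries 3 of 22 rose, where 0.0329% of all tested genes were called higher, and the median was 0.43, beside 0.02 over all tested genes. The CPM ranges of 9 of the 22 were higher in Δβ3 without overlap, as were those of 9.2% of all tested genes. Egr3, a relative of Egr1, had a fitted log2 fold change of 2.19 ± 0.90 with 16 libraries from levels of at most 0.382 CPM in pMx and 0.543 to 1.88 CPM in Δβ3, and did not pass the test (edgeR adjusted p = 0.475). Of the feedback inhibitors of the same cascade, Dusp5 passed as given above and the others on the list did not. Dusp6, an ERK phosphatase, stood at 0.19 ± 0.07, Dusp4 at 0.05 ± 0.08, Spry2 at 0.23 ± 0.10, Spry4 at 0.12 ± 0.11 and Spred1 at -0.02 ± 0.09.

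**Figure D4:**
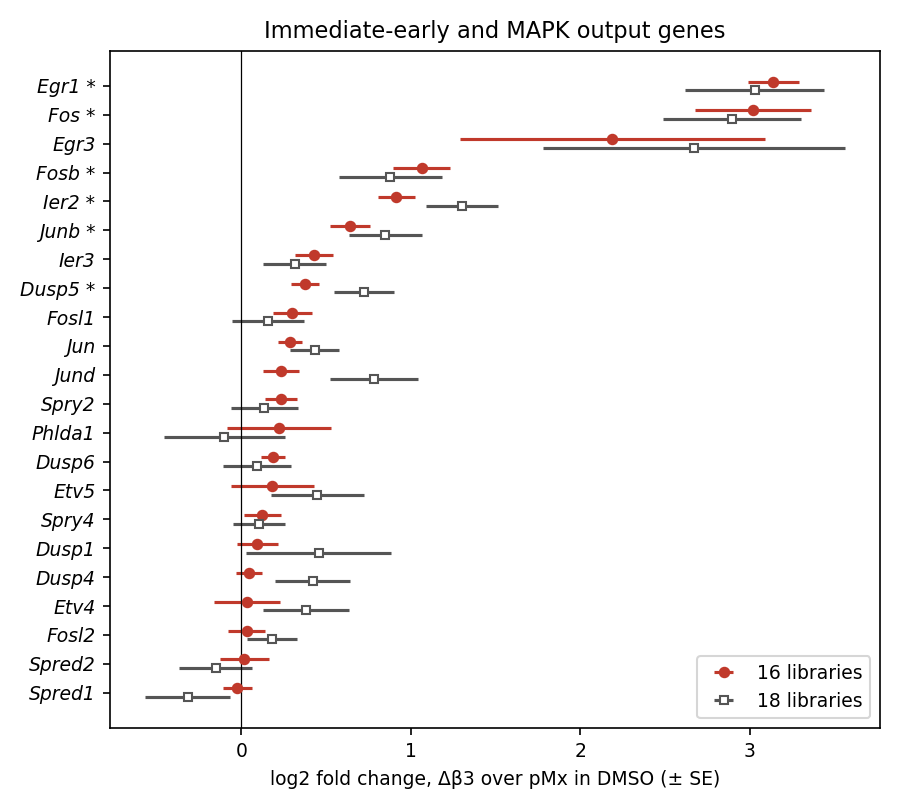
Log2 fold change of Δβ3 over pMx in DMSO, with its SE, for the 22 tested immediate-early and MAPK output genes from the fits of 16 (circles) and 18 libraries (squares); asterisks mark the 6 called with 16 libraries. Egr1 and Fos stood near 3 in both fits, while most of the feedback inhibitors lay within 0.5 of 0.

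The remaining rises concerned secreted and matrix-related genes, keratins and metabolic enzymes, most of them smaller than 2-fold. By the naming rule 29 genes were higher, and the largest of these, besides Itgb3, Egr1, Fos, Fosb and Ier2 above, are described here. Cyr61, which encodes the matricellular protein CCN1, a ligand of αvβ3, had 62.3, 67.1 and 69.1 CPM in pMx and 145.5, 118.7 and 112.4 CPM in Δβ3. Its log2 fold change was 0.80 ± 0.08 with 16 libraries and 0.92 ± 0.22 with 18 (edgeR adjusted p = 2.45e-06 and 0.458). It was the 1 of 12 tested β3 ligands and matrix genes, and the 1 of 22 SRF and YAP targets, that was called with 16 libraries. Over all tested genes 0.275% were called higher in that fit. The medians of these lists were 0.10 and -0.02, against -0.01 over all genes. With 18 libraries they were 0.31 and 0.14, against 0.02.

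Mmp3, the matrix protease stromelysin 1, had 50.2, 50.0 and 49.0 CPM in pMx and 53.5, 88.2 and 85.4 CPM in Δβ3. Culture 1 lay just above the pMx range, and the log2 fold change was 0.80 ± 0.11 with 16 libraries and 0.61 ± 0.29 with 18 (edgeR adjusted p = 0.000177 and 0.495). Plat, tissue-type plasminogen activator, had 14.2, 16.2 and 16.5 CPM in pMx and 18.6, 23.98 and 23.01 CPM in Δβ3 (0.58 ± 0.12 and 0.48 ± 0.14, adjusted p = 0.0352 and 0.458). With 16 libraries these were 2 of 20 tested proteases and inhibitors, where 0.275% of all tested genes were called higher. The median of the list was -0.03, and with 18 libraries it was 0.22 with 0 called. Pthlh, the parathyroid hormone-related protein that breast cancer cells release in bone, had 13.3, 15.7 and 14.2 CPM in pMx and 20.5, 24.9 and 22.6 CPM in Δβ3 (0.71 ± 0.15 and 0.65 ± 0.26, adjusted p = 0.0300 and 0.458). It was the 1 called of 11 bone and osteoclast regulating genes, with a median of -0.01 with 16 libraries and 0.30 with 18. Tgfb1, the cytokine TGFβ1 that is released from its latent complex by αv integrins, had 18.2, 17.2 and 19.3 CPM in pMx and 35.0, 29.9 and 29.2 CPM in Δβ3 (0.69 ± 0.15 and 0.78 ± 0.20, adjusted p = 0.0429 and 0.458), the 1 called of 20 TGFβ and activin genes. With 16 libraries the calls of Plat, Pthlh and Tgfb1 were each lost without any 1 of the 5 DMSO cultures of these lines (adjusted p up to 0.58, 0.628 and 0.558).

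Crabp2, which carries retinoic acid to its nuclear receptor, had 13.9, 17.3 and 18.8 CPM in pMx and 36.2, 34.5 and 31.3 CPM in Δβ3 (log2 fold change 0.97 ± 0.15 with 16 libraries and 1.03 ± 0.30 with 18). St8sia1, the synthase of ganglioside GD3, had 16.8, 14.2 and 14.3 CPM in pMx and 25.2, 26.6 and 34.6 CPM in Δβ3 (1.02 ± 0.18 and 0.93 ± 0.47). In both genes the lowest Δβ3 culture was above the highest pMx culture, as the naming rule required. Ass1, the argininosuccinate synthase of arginine synthesis, had 11.2, 12.4 and 11.5 CPM in pMx and 14.3, 26.2 and 18.5 CPM in Δβ3 (0.93 ± 0.15 and 0.75 ± 0.44), with culture 1 nearest to pMx. Nxph3, a secreted ligand of neurexins, had 15.1, 23.4 and 18.6 CPM in pMx and 54.5, 33.8 and 33.0 CPM in Δβ3 (0.80 ± 0.15 and 1.09 ± 0.27), with culture 1 highest. Slc25a29, a mitochondrial carrier of basic amino acids, had 34.4, 40.6 and 40.0 CPM in pMx and 53.1, 69.1 and 62.9 CPM in Δβ3 (0.78 ± 0.12 and 0.69 ± 0.24). With 16 libraries the edgeR adjusted p ran from 0.000889 for Slc25a29 to 0.0113 for Nxph3 over these 5 genes, and with 18 libraries from 0.458 to 0.570.

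The keratin pair of simple epithelia was higher in Δβ3. Krt8 had 1304, 1508 and 1371 CPM in pMx and 1693, 1907 and 1785 CPM in Δβ3, and its partner Krt18 had 942.2, 1078 and 1044 CPM in pMx and 1577, 1508 and 1264 CPM in Δβ3. Neither range overlapped. The log2 fold changes with 16 libraries were 0.40 ± 0.08 for Krt8 and 0.43 ± 0.08 for Krt18 (edgeR adjusted p = 0.0155 and 0.00905), and with 18 libraries 0.36 ± 0.26 and 0.51 ± 0.22 (0.644 and 0.471). The calls were lost without Δβ3 culture 2 or pMx culture 1 in either gene, and for Krt8 also without Δβ3 culture 3 or pMx culture 3 (adjusted p up to 0.524 for Krt8 and 0.71 for Krt18). With 16 libraries these were 2 of 7 tested keratins and 2 of 16 tested genes of epithelial and mesenchymal identity (medians 0.18 and 0.03). Over all tested genes 0.275% were called higher. With 18 libraries 0 of either list were called (medians 0.36 and 0.13). The summed level of the luminal marker list, which Krt8 and Krt18 dominate, was 3051 to 3418 CPM in Δβ3 and 2248 to 2589 CPM in pMx. Jup, the junction protein plakoglobin, had 140.5, 144.9 and 138.6 CPM in pMx and 198.0, 194.5 and 185.0 CPM in Δβ3. Its log2 fold changes were 0.42 ± 0.09 with 16 libraries and 0.45 ± 0.12 with 18 (edgeR adjusted p = 0.0459 and 0.458). With 16 libraries its call was lost without any 1 of the pMx cultures and without Δβ3 culture 2 or 3.

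Neuronal pentraxin 1, encoded by Nptx1, had 567.9, 574.1 and 549.4 CPM in pMx and 902.8, 777.8 and 838.7 CPM in Δβ3, a log2 fold change of 0.51 ± 0.07 with 16 libraries and 0.57 ± 0.27 with 18 (edgeR adjusted p = 0.000495 and 0.495). Its receptor gene Nptxr had 42.9, 43.5 and 40.8 CPM in pMx and 263.4, 63.2 and 67.0 CPM in Δβ3, where culture 1 stood far above the rest (0.61 ± 0.10 without it and 1.63 ± 0.47 with it). Nefl, the light neurofilament, showed the same order of cultures, with 642.4 to 759.0 CPM in pMx and 1778, 880.1 and 963.5 CPM in Δβ3 (0.41 ± 0.08 and 0.80 ± 0.21). The symbol AK137397, for which no annotation was found, had 5.71, 7.58 and 8.06 CPM in pMx and 17.4, 25.995 and 25.002 CPM in Δβ3 (1.82 ± 0.17 and 1.68 ± 0.44, adjusted p = 1.5e-06 and 0.458). Like Junb, Dusp5, Jup, Nptx1, Nptxr and Nefl it was chosen after its values were seen. Of the other higher genes, Plek2, Nt5dc2, Trib1, Nrarp, Klhdc8a, Mtmr11 and Hhip had log2 fold changes from 0.38 (Hhip, an inhibitor of hedgehog signalling) to 1.15 (Plek2, a relative of pleckstrin) with 16 libraries, and none of these was called with 18. In Δβ3 culture 1, which that fit left out, Nt5dc2 and Trib1 lay below every pMx culture and Plek2 within the pMx range.

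Igsf11 was the 1 gene that was called lower in both fits. It encodes an adhesion molecule of the immunoglobulin superfamily (chromosome 16, 38892671 to 39027159) and had 12.2, 13.8 and 14.3 CPM in pMx and 6.51, 5.43 and 6.06 CPM in Δβ3. Culture 1 did not stand apart, and the log2 fold change was -1.16 ± 0.15 with 18 libraries and -1.24 ± 0.15 with 16 (edgeR adjusted p = 0.00338 and 5.15e-05). The call held without any 1 of the 6 cultures in the fit of 18 (adjusted p from 0.00437 to 0.0365). Besides Igsf11, 4 further lower genes met the naming rule. Foxf1, a forkhead factor of gut and lung mesenchyme, had 10.4, 10.5 and 9.22 CPM in pMx and 2.37, 4.89 and 3.98 CPM in Δβ3 (-1.18 ± 0.20 with 16 libraries and -1.41 ± 0.33 with 18, adjusted p = 0.00377 and 0.458). Siglecg, a sialic acid-binding lectin known from B cells, had 12.8, 14.4 and 13.3 CPM in pMx and 5.92, 6.67 and 7.53 CPM in Δβ3 (-0.94 ± 0.15 and -1.01 ± 0.38, adjusted p = 0.00248 and 0.458). Slco5a1, of the organic anion transporter family, had 16.1, 15.2 and 14.7 CPM in pMx and 7.40, 7.91 and 8.31 CPM in Δβ3 (-0.92 ± 0.17 and -0.96 ± 0.38). Seh1l, a nuclear pore subunit, had 162.5, 160.6 and 142.2 CPM in pMx and 112.3, 121.7 and 121.0 CPM in Δβ3. Its log2 fold changes were -0.36 ± 0.08 and -0.39 ± 0.17 (edgeR adjusted p = 0.0416 and 0.471). With 16 libraries the call of Seh1l was lost with RLE factors, without pMx culture 1 or 2 and without Δβ3 culture 2 or 3. The naming rule required ranges that did not overlap. The 2 other lower genes, the ephrin receptor gene Epha4 and the zinc finger gene Zfp503, fell outside the rule, since culture 1 lay at 24.6 CPM for Epha4 (16.2 to 23.5 in pMx) and at 71.5 CPM for Zfp503 (70.9 to 87.2 in pMx).

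The sign of the heart muscle markers depended on the libraries in the fit. Their median log2 fold change was 0.77 over 20 tested markers with 18 libraries and -1.45 over 19 with 16, where pMx cultures 1 and 2 held more of these transcripts than Δβ3 cultures 2 and 3. None of the markers was called by edgeR in either fit. Endothelial markers (median 0.49 with 18 libraries and -1.38 with 16, of 4 tested) and fibroblast markers (0.90 and -0.97, of 7 tested) took the same signs, also with 0 called. Leukocyte markers summed to 77.8 CPM in Δβ3 culture 1 and to between 38.3 and 47.4 CPM in the other 5 libraries. With the heart marker sum as a covariate in the fit of 16 libraries, 46 genes were called, and 34 of the 41 genes were among them. The calls of Epha4, Mtmr11, Ndrg1, Plat, Pthlh, Seh1l and Tgfb1 were lost (edgeR adjusted p from 0.0505 for Tgfb1 to 0.0927 for Epha4), with log2 fold changes of the same sign. Δβ3 culture 1 can also be set beside the genes that were called without it. Of the 34 genes called higher with 16 libraries, 30 lay above all 3 pMx cultures in culture 1, as did 38.8% of all tested genes. Of the 7 called lower, 5 lay below all 3, as did 41.8% of all tested genes. The same 3 pMx cultures entered the calls, so these counts are in part fixed by the selection. Among the exceptions, Fdft1, Nt5dc2 and Trib1, called higher, lay below all 3 pMx cultures in culture 1. Epha4, called lower, lay above all 3, and Plek2 and Zfp503 lay within the pMx range.

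The genes around β3 itself showed no called difference. Of 14 tested integrin subunits other than β3, 0 were called with 16 libraries, with a median of -0.10. With 18 libraries 0 of 13 were called, with a median of 0.24. Itgav, the αv partner of β3, had 584.2, 534.9 and 478.8 CPM in pMx and 312.3, 489.2 and 493.5 CPM in Δβ3, with culture 1 lowest and the others within the pMx range. Its log2 fold change was -0.12 ± 0.09 with 16 libraries and -0.30 ± 0.21 with 18. Itgb1, the β subunit of the main fibronectin and collagen receptors, stood at -0.07 ± 0.10 and -0.35 ± 0.22, and Itga2b, which encodes αIIb, was at most 0.987 CPM in any of the 6 cultures. Itgb5 had 0 counts in every library. Low counts do not show that such genes are silent here, because Gapdh, a glycolytic enzyme of every cell, had 1.82 to 3.68 CPM in these 6 libraries. Of 27 tested adhesion and signalling proteins of integrin complexes (talins, kindlins, Src, FAK and others), 0 were called, with a median of 0.01. Of 23 collagens, laminins and crosslinking enzymes 0 were called, with a median of -0.10. With 18 libraries 0 were called in either list, and the medians were 0.16 and 0.41.

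Ndrg1, a stress and hypoxia gene, was the 1 called of 27 tested glycolysis and hypoxia genes (0.47 ± 0.10 with 16 libraries, edgeR adjusted p = 0.0333), and 22 of the 27 were above 0 (5975 of all 12356) at a median of 0.14. Fdft1, squalene synthase, was the 1 called of 29 sterol and fatty acid synthesis genes (0.40 ± 0.08, adjusted p = 0.0280). In that list 24 of the 29 were above 0 at a median of 0.21, and the median was 0.09 with 18 libraries. Of all tested genes, 0.275% were called higher with 16 libraries. In culture 1 Fdft1 had 127.9 CPM, below the pMx range of 155.2 to 171.6, and with 18 libraries its log2 fold change was 0.20 ± 0.21. For both genes the call was absent with 18 libraries (edgeR adjusted p = 0.458 and 0.785). With 16 libraries the call of Ndrg1 was lost without any 1 of the pMx cultures, and that of Fdft1 without pMx culture 1 or 2. Both calls were also lost without Δβ3 culture 2 or 3. In the other 15 of the 25 lists 0 genes were called with 16 libraries. These lists had 10 to 31 tested members each and medians between -0.18 and 0.17. They covered the interferon response, antigen presentation, NF-kB and inflammatory factors, WNT and EGF receptor genes, p53 targets, mitosis, DNA replication, the ATF4 and NRF2 responses, S100 proteins, drug efflux and tubulins, besides the integrin and collagen lists above. With 18 libraries several of these medians changed sign, among them those of the WNT list (0.15) and the collagen list (0.41).

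The same 2 lines were also grown in docetaxel, in cultures that share no library with those in DMSO. There 56 of 12356 genes (0.453%) differed between Δβ3 and pMx with 16 libraries, 46 higher (0.372%) and 10 lower (0.0809%), and 3 of 12145 (0.0247%) with 18 libraries, namely Itgb3, Fos and Igsf11. All 41 genes called in DMSO with 16 libraries had the same sign in docetaxel, where 50.9% of all tested genes were above 0. Of these, 24 were called in docetaxel as well, which is 58.5% of the DMSO calls and 42.9% of the docetaxel calls, and 37 had an unadjusted p under 0.05, as did 9.48% of all tested genes. The median log2 fold change of the 34 higher genes was 0.69 in DMSO, where they were selected, and 0.49 in docetaxel. For the 7 lower genes it was -0.92 and -0.46.

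**Figure D5:**
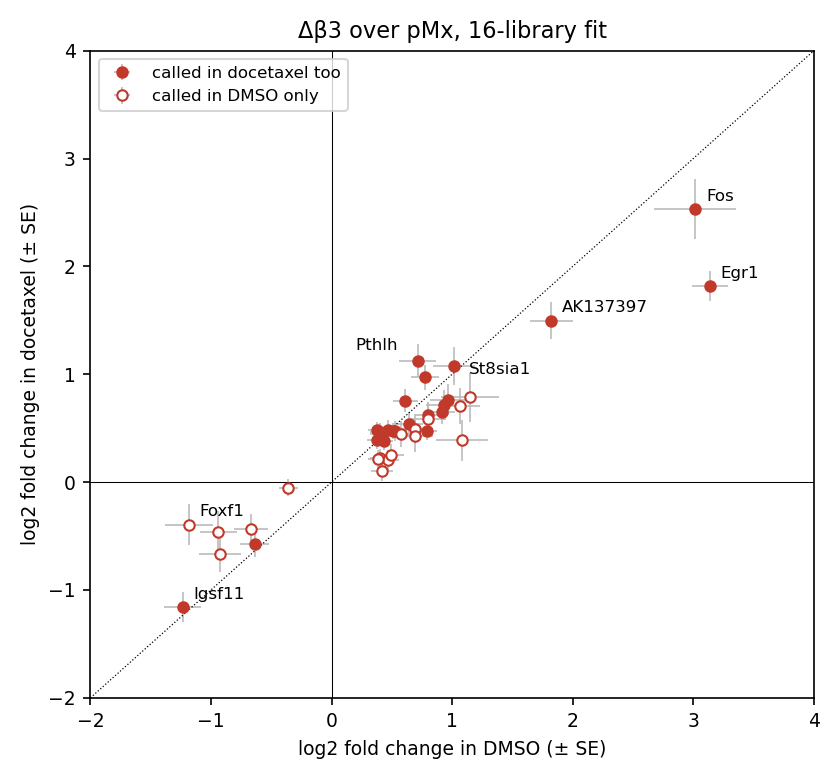
Log2 fold change of Δβ3 over pMx in DMSO (horizontal) and in docetaxel (vertical), each with its SE, from the fit of 16 libraries, for the genes called in DMSO; filled points were also called in docetaxel, the dotted line marks equal values, and Itgb3 (6.87 and 7.53) lies outside the axes. All points lie in the lower left or the upper right, and Egr1 lies farthest below the line.

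Fos had 4.02, 3.55 and 3.42 CPM in pMx in docetaxel and 16.6, 13.1 and 25.9 CPM in Δβ3, so that the ranges did not overlap with Δβ3 culture 2 included. Its log2 fold change was 2.53 ± 0.28 with 16 libraries and 2.34 ± 0.38 with 18 (edgeR adjusted p = 2.38e-05 and 0.0421). Igsf11 had 27.5, 25.05 and 24.0 CPM in pMx and 10.7, 12.1 and 12.3 CPM in Δβ3 (-1.16 ± 0.14 and -1.12 ± 0.15, adjusted p = 3.41e-05 and 0.00426). Both genes had higher levels in docetaxel than in DMSO in either line. Egr1 had 53.2, 75.5 and 66.3 CPM in pMx and 206.9, 50.5 and 255.1 CPM in Δβ3, where culture 2, the library with the highest heart marker sum, was the lowest of all 6 (1.82 ± 0.14 and 1.40 ± 0.38, adjusted p = 1.34e-06 and 0.347). Of the immediate-early list, 7 of 22 tested genes rose in docetaxel with 16 libraries, where 0.372% of all tested genes were called higher. The median of the list was 0.28, beside 0.01 over all tested genes. These 7 were Egr1, Fos, Ier2, Junb, Dusp5, Jun and Ier3, the last an early gene that modulates ERK signalling. With 18 libraries 1 of the 22 rose, Fos, and the median of the list was 0.24.

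The difference between the 2 treatments was tested directly as an interaction. With edgeR 0 genes were called with 18 or with 16 libraries, while 520 (4.28%) and 353 (2.86%) had an unadjusted p under 0.05. DESeq2 called 0 genes with 18 libraries and 1 with 16. The gene nearest to the threshold among those named was Egr1, whose gap between the lines was smaller in docetaxel by -1.32 ± 0.21 on the log2 scale (16 libraries, adjusted p = 0.0582, 95% interval -1.72 to -0.91), and by -1.63 ± 0.54 with 18 (adjusted p = 0.763). It was the 1 gene called by DESeq2. For Fos the interval was -1.37 to 0.39 and for Igsf11 -0.32 to 0.47, so neither a larger nor a smaller gap in docetaxel was shown.

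The hβ3 line, which carries functional β3, gives the levels of the same genes in 1 further line, so features besides the construct enter here too. Its comparison with pMx shares the pMx cultures with the one described here and called 1095 of 12145 genes with 18 libraries (9.02%) and 3312 of 12356 with 16 (26.8%). Egr1 had 17.9, 18.8 and 25.2 CPM in hβ3 DMSO cultures, above the pMx range of 14.3 to 17.7 and below every Δβ3 culture, and its log2 fold change over pMx was 0.31 ± 0.14 with 16 libraries (edgeR adjusted p = 0.122). Fos had 1.11, 0.496 and 0.497 CPM in hβ3, within the pMx range (-0.34 ± 0.41, adjusted p = 0.595). Ier2 had 43.5, 38.3 and 43.2 CPM in hβ3 (0.14 ± 0.10, adjusted p = 0.316). For these early genes the Δβ3 cultures stood above those of both other lines, and the ranges of pMx and hβ3 overlapped for Fos and Ier2.

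Other genes took a different order of levels. Cyr61 had 364.7 to 395.5 CPM in hβ3, above the Δβ3 range of 112.4 to 145.5, which in turn was above pMx, and its log2 fold change over pMx was 2.48 ± 0.08 in hβ3 and 0.80 ± 0.08 in Δβ3 with 16 libraries. Mmp3 had 2.48 to 3.67 CPM in hβ3, where its log2 fold change over pMx was -4.08 ± 0.12, against 0.80 ± 0.11 in Δβ3. St8sia1 (0.901 to 1.42 CPM in hβ3), Nptx1 (155.1 to 173.3) and Jup (16.9 to 20.6) were likewise below pMx in hβ3 and above it in Δβ3. Igsf11 and Siglecg stood the other way round, with 28.9 to 32.5 and 75.8 to 86.8 CPM in hβ3, above pMx, and below pMx in Δβ3. Dusp5 and Junb were above the pMx range in both lines, at 267.1 to 300.6 and 38.9 to 48.8 CPM in hβ3.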

How the data were processed

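RNA was sequenced from 18 cultures in 6 groups of 3, and the authors deposited raw read counts per transcript model. Per the submitters' processing notes they used FastQC, HISAT2, featureCounts and mm10. The sources used here do not give versions, annotation, strand or the handling of reads shared by several models. The deposited length of each model, a unit of its own, was not used. Counts of the 63759 models were summed to 32699 gene symbols, of which 13170 had several models. Of 12420 symbols tested in either fit, 10877 matched GENCODE M21 or RefSeq.

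Tests used R 4.3.3 and edgeR 4.0.16: filterByExpr, TMM factors, robust quasi-likelihood F-tests (two-sided) with a coefficient per group over 18 libraries, repeated over 16. Calls were made at p under 0.05 after Benjamini-Hochberg adjustment over all tested genes. Intervals are 95%. DESeq2 1.42.0 was an alternative. Scripts were tested on simulated data. Libraries of a group differed by more than sampling noise.

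Named genes were protein coding, called with 16 libraries, had a mean of at least 2 CPM, ranges that did not overlap over 3 and 3 cultures and the same sign in both fits. Of these the 14 largest in each direction were taken (5 met the rule for lower genes). A gene that met the rule is not reported here. Added were up to 4 members of a list with the smallest p and a few genes named in advance. Other genes named were chosen after their values were seen. The members, the 25 gene lists and the 8 marker lists were chosen with earlier results of these data known.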

Additional observations from a re-analysis of the deposited data

How the results depend on the processing

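With 18 libraries the DMSO comparison called 5 genes. It called 41 with 16 libraries, 2 with only the 6 libraries compared, 33 with only those and without Δβ3 culture 1, 33 with DESeq2, 17 with the heart marker sum as a covariate, and 2 to 5 without 1 culture (2 without pMx culture 3, 3 without pMx culture 1 or 2, 5 without any Δβ3 culture). With 16 libraries it called 75 genes with DESeq2, 108 with no filter, and 10 to 35 without 1 culture (10 without Δβ3 culture 2, 20 without Δβ3 culture 3, 19 without pMx culture 1). A fit of 16 libraries without Δβ3 culture 2 or 3 leaves 1 Δβ3 DMSO culture, which is taken to vary like the other groups, and the same holds for Δβ3 in docetaxel. Of the 41 genes, 9 were called in all 16-library alternatives run (AK137397, Cyr61, Egr1, Fos, Ier2, Igsf11, Itgb3, Mmp3, Nptx1), and 32 were lost in at least 1. Docetaxel calls were 3 with 18 libraries, 56 with 16, 7 with DESeq2 and 1 to 8 without 1 culture. From 16 libraries they were 99 with DESeq2 and 17 to 57 without 1 culture (17 without Δβ3 culture 1 or 3, 25 without pMx culture 3). The interaction with 16 libraries called 1 gene, Egr1, with RLE factors, with DESeq2, with the heart covariate, and without Δβ3 docetaxel culture 3 or pMx docetaxel culture 1 (0 to 1 over single cultures). The hβ3 count went from 1095 to 3312 with 16 libraries. Deviations of same-numbered Δβ3 and pMx DMSO cultures from their group means had r of 0.29, -0.13 and 0.36. Those of differently numbered cultures ran from -0.42 to 0.37. With 3 cultures a group and culture 1 far from the rest, these values cannot decide whether the numbers pair the cultures. With the replicate block 4 genes were called in DMSO with 18 libraries, where Ier2 was lost (adjusted p = 0.0663), and 46 with 16, while docetaxel gave 2 and 112, and the interaction 1, Egr1 (-1.21, adjusted p = 0.00194). Signs reversed for uncalled genes. Against 18 libraries, Timp3 was -0.34 with 16, -0.35 with only the libraries compared without culture 1, -0.31 with the replicate block and -0.036 with the heart covariate, and Id3 was -0.24, -0.24 and -0.28 in the first 3 of these. Without 1 culture, the values ran from -0.34 (Δβ3 culture 1) to 0.23 for Timp3, from -0.24 (Δβ3 culture 1) to 0.44 for Id3, from -0.034 (Δβ3 culture 3) to 0.19 for Thbs2, from -0.0055 (Δβ3 culture 2) to 0.60 for Mgp, from -0.062 (Δβ3 culture 2) to 0.10 for Actb and from -0.27 to 0.19 (pMx culture 3) for Gapdh. Against 16 libraries, Gapdh was 0.0005 with DESeq2 and -0.24 to 0.21 (pMx culture 3) without 1 culture, Krt15 -0.047 and Krt13 -0.028 with the heart covariate, Itgb1 -0.15 to 0.012 (Δβ3 culture 2) and Itga2b -0.052 (pMx culture 1) to 0.46 without 1 culture. The cause was not tested. Alternatives on 16 libraries, the replicate block there and the 16-library hβ3 count were added after seeing the data. With 3 cultures a group and counts of 5 to 20 in pMx for Itgb3 and 6 to 18 for Fos, counting error limits the size of those folds.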
